A study of Homo sapiens with 8 samples.

Results

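The 10 genes described here are regulators and effectors of the epithelial to mesenchymal transition (EMT) in H3122 cells, an ALK-positive non-small cell lung cancer line, and in derivatives of it that evolved resistance to ALK inhibitors. They were chosen by symbol: SNAI2, ZEB1 and ZEB2 (transcription factors), VIM, FN1, SPARC, CD44 and CDH2 (mesenchymal side) and CDH1 and EPCAM (epithelial side), 10 of the 43869 genes of the deposited table, and all 10 were found in it. Each gene was followed by its RNA and by every peak of H3K27ac, a histone acetylation mark, that the table pairs with it, up to 20 kb from the gene, which gave 54 of the table's 126470 peaks, 24 on the mesenchymal side and 30 on the epithelial side. Of these 54 peaks, 14 are paired with exactly 1 gene. H3122 cells carry an EML4-ALK fusion, and the 4 groups compared derive from that line. These were naive cells, never selected in an inhibitor, and the resistant lines erCriz0 (evolved in 0.5 µM crizotinib), erAlec0 (2 µM alectinib) and erLor0 (2 µM lorlatinib). The resistant lines came from naive cells by stepwise increase of the dose, each is a single line and not a set of independent ones, and RNA was taken after culture without inhibitor, while the state of the cells used for chromatin is not given in the sources used here. The series also holds erCriz1, erLor1, a sample kept in 0.5 µM lorlatinib and pooled input DNA, which were not analysed here.

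RNA and H3K27ac were each measured in 1 library per line, so there is no replicate spread and no test, and whether any difference below exceeds such spread cannot be said. Levels are regularized log2 read counts (rlog), in which differences of features with few reads are shrunk toward 0. A positive change means a higher rlog than in naive cells, and a gene or peak was called up or down at a change of at least 1 in size, which is 2-fold. The depth of the libraries is unknown. The 3 comparisons share the naive library, so their values are given side by side only. In bulk RNA, a different share of cells and a different amount of RNA per cell cannot be told apart. The library medians lay close together, from 8.09 to 8.14 for expressed genes and from 4.02 to 4.13 for peaks. Of 8 markers of lung adenocarcinoma cells, 6 were expressed, meaning at an rlog of at least 4.64 (25 reads) in some library, with keratin genes and NKX2-1 among them. NAPSA and SFTPB, markers of the distal lung, were under that minimum. Markers of other cell types were mostly under it too. Of 5 fibroblast markers with a row, COL1A1 was expressed (9.49 to 10.08) and PDGFRA, PDGFRB, DCN and LUM lay between 1.45 and 2.61, and the summed normalized level of all 5 was 732 (naive), 855 (erCriz0), 1031 (erAlec0) and 1094 (erLor0). None of 5 leukocyte markers was expressed, with PTPRC at 0 and a summed level between 4.97 and 5.74. Of 4 endothelial markers, CDH5 and KDR were expressed, PECAM1 and VWF were near 0, and the summed level was 115 (naive), 64.5 (erCriz0), 122 (erAlec0) and 181 (erLor0). CDH5 was called up in erAlec0 (1.68) and erLor0 (1.54), and KDR was called down in erCriz0 (−1.15). The part of these cell types in the results was not tested.

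In EMT, epithelial cells lose the junctions that tie them together and gain the cytoskeleton, matrix contacts and motility of mesenchymal cells. The transcription factors SNAI2 (SLUG), ZEB1 and ZEB2 bind E-boxes (CAGGTG) in promoters such as that of CDH1, which encodes E-cadherin, and repress them. VIM encodes the intermediate filament vimentin, FN1 the matrix protein fibronectin, SPARC a secreted matrix-binding glycoprotein, CD44 the receptor for hyaluronan, CDH2 N-cadherin and EPCAM an epithelial adhesion molecule. H3K27ac marks active promoters and enhancers, and in lung cancer cells a partial form of EMT, in which mesenchymal genes are gained while epithelial ones are kept, is well known.

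The gene starts of ZEB1 and CD44 lie inside a paired peak, and that of VIM lies outside every one. The sequences below belong to these starts and to the most strongly acetylated CD44 peak. They are on the plus strand, 5′ to 3′, and capitals mark a match to the E-box CAGGTG, to the AP-1 motif TGANTCA or to the TEAD motif GGAATG, searched on both strands. The 250 bases before a start are from RefSeq (GRCh38.p14) and the others from hg38. The ZEB1 window chr10:31318167-31318416 lies inside the peak over the ZEB1 start:
ZEB1 promoter 1: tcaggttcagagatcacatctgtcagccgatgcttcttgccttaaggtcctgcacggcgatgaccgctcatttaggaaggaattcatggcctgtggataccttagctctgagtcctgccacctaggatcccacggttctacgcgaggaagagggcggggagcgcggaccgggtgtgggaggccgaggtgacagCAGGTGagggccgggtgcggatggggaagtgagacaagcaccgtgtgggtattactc
The VIM window chr10:17227991-17228240 lies outside every peak paired with VIM:
VIM promoter: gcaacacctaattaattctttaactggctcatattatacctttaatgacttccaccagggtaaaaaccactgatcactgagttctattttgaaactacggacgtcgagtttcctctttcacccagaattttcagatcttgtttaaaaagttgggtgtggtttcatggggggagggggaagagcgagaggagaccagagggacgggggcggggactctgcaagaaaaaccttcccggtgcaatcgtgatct
The CD44 stretch chr11:35138713-35138869 is the part of the CD44 start peak that lies before the first annotated transcript:
CD44 start peak: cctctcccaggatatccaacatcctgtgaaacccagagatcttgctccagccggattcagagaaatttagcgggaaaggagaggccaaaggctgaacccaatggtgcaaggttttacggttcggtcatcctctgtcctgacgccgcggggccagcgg
The window chr11:35174316-35174615 is the central 300 bases of the broad intronic CD44 peak:
CD44 intronic peak: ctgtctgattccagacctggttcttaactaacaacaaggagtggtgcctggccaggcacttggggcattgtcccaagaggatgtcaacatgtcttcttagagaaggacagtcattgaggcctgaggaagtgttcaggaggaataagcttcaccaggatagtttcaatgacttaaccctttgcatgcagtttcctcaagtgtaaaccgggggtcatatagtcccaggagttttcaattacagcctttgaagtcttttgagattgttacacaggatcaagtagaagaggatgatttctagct
Each printed window held at most 1 match, so no matches overlap. The printed ZEB1 promoter, the first of 7 that RefSeq gives for the gene, held 1 E-box, and 17.5% of 35116 RefSeq promoters of the same length held at least 1. Of the other 6 ZEB1 promoters, 1 held 2 E-boxes and 5 held none. The VIM and CD44 windows held none of the 3 motifs. RefSeq promoters were matched for 7 of the 10 genes, and SNAI2, CDH1 and EPCAM were not among them. Over the 30 peak centres of the epithelial genes, each 300 bases long, 13 held the E-box (43.3%), against 3 of 23 on the mesenchymal side without SNAI2 (13.0%) and 30.0% of all peaks. A match is a description of letters and not evidence of binding.

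RNA of the 8 mesenchymal genes was higher in erCriz0 than in naive cells for all 8, with a median change of 1.14. In erAlec0 and erLor0, 6 of 8 were higher, with medians of 0.65 and 0.45. Over all 12701 expressed genes the median changes were −0.02, 0.00 and −0.00 in erCriz0, erAlec0 and erLor0. Called up were 4 of 8 in erCriz0 (VIM, FN1, SPARC and CD44), 1 in erAlec0 (VIM) and 1 in erLor0 (CD44), where 2.65%, 2.46% and 1.1% of expressed genes were called up. None was called down, where 1.65%, 2.07% and 0.74% of expressed genes were. Neither epithelial gene was called in either direction in any line, and their median changes were 0.16, 0.22 and 0.09. Of the 10 genes, 8 passed the expression minimum. ZEB1 and ZEB2 stayed under it in every library. SNAI2 passed only through erCriz0, with erAlec0 (4.62) and erLor0 (4.60) just under the minimum, and SPARC passed only through resistant lines. For those last 2 a higher value in a resistant line was a condition of passing.

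**Figure D1:**
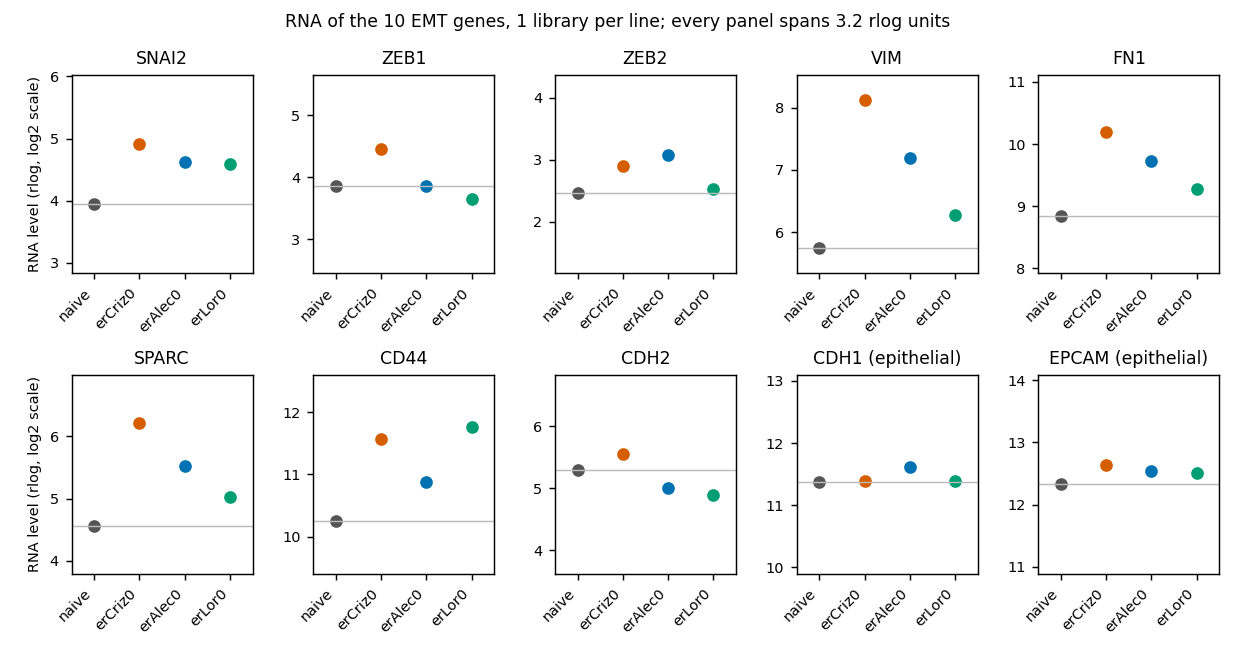
RNA level (rlog, log2 scale) of each gene in naive, erCriz0, erAlec0 and erLor0 cells, 1 point per library, with the grey line at the naive level. VIM, FN1 and SPARC descended from erCriz0 to erAlec0 to erLor0 and stayed above naive, CD44 was highest in erLor0 (11.76), and CDH1 and EPCAM moved by at most 0.30.

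Among the transcription factors, SNAI2 came closest to the limit. The gene (ENSG00000019549, chr8:48917598-48921740, minus strand) had RNA levels of 3.95 (naive), 4.92 (erCriz0), 4.62 (erAlec0) and 4.60 (erLor0), so all 3 resistant lines were above naive by 0.97, 0.67 and 0.65. Its only peak, which covers the start of 3 transcripts, had H3K27ac levels of 5.83 (naive), 6.87 (erCriz0), 6.85 (erAlec0) and 6.43 (erLor0). The peak was called up in erCriz0 (1.04) and erAlec0 (1.01) and was 0.60 higher in erLor0. Both calls lie close to the limit and were lost under some other scalings. In erCriz0 the change was 0.85 with quantile normalization and 0.83 with the trend with level removed, but 1.12 with each library centred. In erAlec0 it was 0.89, 0.88 and 0.998 under the same scalings. The RNA change in erCriz0 was 1.02 with RNA centred and 0.90 with RNA quantile normalized. Other peaks within 5 Mb had median changes of 0.04, 0.12 and −0.15, against which the start of SNAI2 was higher by 1.00, 0.89 and 0.75. That peak is also paired with 2 unnamed genes of the annotation.

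ZEB1 (ENSG00000148516, chr10:31318495-31529814, plus strand) gave RNA levels of 3.86 (naive), 4.46 (erCriz0), 3.86 (erAlec0) and 3.65 (erLor0), all under the expression minimum. Of its 6 peaks, 3 lie at the start and 3 in an intron more than 81 kb downstream. The peak over the start, chr10:31318058-31319132, whose bases include the E-box printed above, was at 6.75 (naive), 7.70 (erCriz0), 6.92 (erAlec0) and 7.05 (erLor0). It was thus highest in erCriz0, by 0.95, just inside the limit. The next peak, of 283 bases, rose by 1.65 in erCriz0 and 1.19 in erLor0, and the third, which covers 2 further transcript starts, by 1.64 in erCriz0. Both are weak, at 1.56 and 2.51 in naive cells. The intronic peaks took another course. The strongest, chr10:31401554-31402823, was at 5.0 (naive), 4.22 (erCriz0), 4.67 (erAlec0) and 5.85 (erLor0), so it was lowest where the start peaks were highest. In erAlec0 none of the 6 peaks moved by more than 0.33. Against other peaks within 5 Mb, the median ZEB1 peak differed by 0.49 (erCriz0), −0.61 (erAlec0) and 0.36 (erLor0). Against those within 2 Mb it differed by 0.63, −0.05 and 0.52. The 3 start peaks are shared with the antisense gene ZEB1-AS1.

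ZEB2 (ENSG00000169554, chr2:144364364-144521057, minus strand) was under the expression minimum as well, with RNA levels of 2.46 (naive), 2.90 (erCriz0), 3.08 (erAlec0) and 2.52 (erLor0). Its single peak is 191 bases long and weak, with levels of 1.65, 1.16, 2.55 and 1.34 in the same order, and no peak was paired with its start. At these levels shrinkage is strong and no difference between lines could be read.

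VIM (ENSG00000026025, chr10:17228241-17237593, plus strand) had the largest RNA change of the 10 genes. Its levels were 5.74 (naive), 8.13 (erCriz0), 7.20 (erAlec0) and 6.27 (erLor0). The changes of 2.39 and 1.46 in erCriz0 and erAlec0 correspond to 5.24-fold and 2.75-fold on the shrunken scale and exceeded those of 99.7% and 99.2% of expressed genes. The erLor0 change was 0.53. H3K27ac did not follow this order. The peak chr10:17229281-17230865, which begins 1040 bases inside the gene and covers 4 transcript starts, was at 5.20 (naive), 5.21 (erCriz0), 7.70 (erAlec0) and 6.55 (erLor0). It rose by 2.50 in erAlec0, more than 99.4% of all peaks, and by 1.34 in erLor0, and stayed within 0.01 of naive in erCriz0, the line with most VIM RNA. A pair of weaker peaks about 8 kb upstream also rose in erAlec0 (1.40 and 1.58) and changed by between −0.42 and 0.33 in the other lines. Against other peaks within 5 Mb, the median VIM peak differed by −0.30 (erCriz0), 1.61 (erAlec0) and 0.29 (erLor0). Against those within 2 Mb it differed by 0.01, 1.22 and 0.05, so of these medians only that of erAlec0 differed by much in both windows. The erLor0 median (0.14) is the value of a weak upstream peak. The rise of 1.34 at the peak inside the gene stood beside a median of −0.14 for other peaks within 5 Mb. All 3 peaks are also paired with the antisense gene VIM-AS1, which was listed at 0 in every library.

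The matrix genes FN1 and SPARC kept the same order of RNA as VIM. FN1 (ENSG00000115414, chr2:215360440-215436073, minus strand) was at 8.84 (naive), 10.19 (erCriz0), 9.72 (erAlec0) and 9.27 (erLor0), so that it rose by 1.35 in erCriz0 and was 0.88 and 0.43 higher in the other lines. Its 3 peaks are short and weak. An intronic peak, chr2:215410397-215410954, was at 4.19 (naive), 4.60 (erCriz0), 2.89 (erAlec0) and 3.32 (erLor0). It was thus higher only in erCriz0, and it fell by 1.30 in erAlec0, the single mesenchymal peak called down. A second intronic peak nearby changed by 0.48, −0.75 and −0.68. The peak closest to the start, 35 bases from it, rose by 1.13 in erAlec0 from a naive level of 2.04. In erAlec0 and erLor0, FN1 RNA was therefore higher while both intronic peaks were lower.

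SPARC (ENSG00000113140, chr5:151661096-151686975, minus strand) had RNA levels of 4.56 (naive), 6.22 (erCriz0), 5.53 (erAlec0) and 5.03 (erLor0). It rose by 1.66 in erCriz0, or 3.16-fold, and was 0.96 and 0.47 higher in the other lines. Its only peak, chr5:151645984-151648577, lies 12518 bases beyond the end of the gene. H3K27ac there was 5.86 (naive), 6.09 (erCriz0), 7.50 (erAlec0) and 7.78 (erLor0). The order of the resistant lines at this peak was the reverse of that of the RNA, with rises of 1.64 in erAlec0 and 1.92 in erLor0 and a difference of 0.23 in erCriz0. The change in erLor0 exceeded those of 99.5% of all peaks. No peak was paired with the SPARC start.

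CD44 had the most peaks of the mesenchymal genes, and it was the one of them whose RNA was highest in erLor0. The gene (ENSG00000026508, chr11:35138870-35232402, plus strand) had RNA levels of 10.25 (naive), 11.57 (erCriz0), 10.88 (erAlec0) and 11.76 (erLor0). It rose by 1.32 in erCriz0 and by 1.51 in erLor0, the latter more than 99.8% of expressed genes, and was 0.63 higher in erAlec0. Its 8 peaks were called up in 1 case (erCriz0), 2 (erAlec0) and 5 (erLor0), where 7%, 14.1% and 7.45% of all peaks were called up, and none was called down. Other peaks within 5 Mb had a median change of 0.35 in erCriz0, against which the CD44 median of 0.33 differed by −0.02, and by 0.41 and 1.03 in erAlec0 and erLor0. The start peak, chr11:35138713-35140052, over 13 transcript starts, was at 5.44 (naive), 6.27 (erCriz0), 6.60 (erAlec0) and 6.99 (erLor0), above naive in all 3. The strongest peak, chr11:35171846-35177086, is 5241 bases long and covers 5 internal transcript starts. Its levels were 8.46 (naive), 9.60 (erCriz0), 8.93 (erAlec0) and 9.64 (erLor0), the same order of lines as the RNA. The peaks did not move as a block. The 2 intronic peaks within 7 kb of the start changed by at most 0.08 in size in erCriz0 and by at least 0.78 in the other lines, while a 347-base peak next to the broad one was higher in erCriz0 alone (0.80, against −0.03 and 0.03).

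CDH2 (ENSG00000170558, chr18:27950966-28177130, minus strand), often read as the counterpart of CDH1, was not called. RNA levels were 5.30 (naive), 5.55 (erCriz0), 5.0 (erAlec0) and 4.90 (erLor0), a change of 0.25 (erCriz0), −0.30 (erAlec0) and −0.40 (erLor0). Its only peak, a weak intronic one of 226 bases, was at 3.46 (naive), 3.12 (erCriz0), 2.80 (erAlec0) and 2.65 (erLor0), below naive in all 3 lines without reaching the limit.

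CDH1 (ENSG00000039068, chr16:68737292-68835541, plus strand) was not called in any line, with RNA levels of 11.38 (naive), 11.39 (erCriz0), 11.62 (erAlec0) and 11.38 (erLor0). Its start lies in a peak of 11614 bases, chr16:68736395-68748008, its strongest. H3K27ac there was 11.06 (naive), 11.08 (erCriz0), 11.14 (erAlec0) and 11.24 (erLor0), a difference of at most 0.18. Of the other 15 peaks, 3 were called in some line, and the share of all peaks called in some line is not given here. In erCriz0, 2 of the 5 peaks just upstream of the start were called down, by −1.09 and −1.14. Of all peaks, 5.94% were called down in that line. The one with the larger fall, chr16:68735225-68735474, was weak, at 3.05 (naive), 1.90 (erCriz0), 2.19 (erAlec0) and 2.44 (erLor0). Deep in the gene the peak chr16:68789236-68791447 was at 5.67 (naive), 5.24 (erCriz0), 6.99 (erAlec0) and 6.04 (erLor0), and its rise of 1.32 in erAlec0 was the only rise called at CDH1. The upstream peaks and the start peak are also paired with the neighbouring CDH3, which encodes P-cadherin. CDH3 RNA was 8.67 (naive), 10.39 (erCriz0), 9.79 (erAlec0) and 9.95 (erLor0), called up in all 3 lines.

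EPCAM (ENSG00000119888, chr2:47345158-47387601, plus strand) had RNA levels of 12.34 (naive), 12.64 (erCriz0), 12.54 (erAlec0) and 12.51 (erLor0), and no change over 0.30. Its start peak, chr2:47336222-47348367, 12146 bases long, was at 10.98 (naive), 11.33 (erCriz0), 11.41 (erAlec0) and 11.20 (erLor0). In erAlec0 and erLor0 all 3 peaks upstream of it were higher than in naive cells, and most of those inside the gene were lower. Upstream, chr2:47333291-47335270 rose by 1.49 in erAlec0 and 1.03 in erLor0 and was 0.37 higher in erCriz0. Inside the gene, chr2:47351190-47352781 was at 6.00 (naive), 5.68 (erCriz0), 4.76 (erAlec0) and 4.93 (erLor0), changes of −1.24 in erAlec0 and −1.07 in erLor0, and a neighbouring 282-base peak fell by 1.18 in erAlec0. Over the 7 peaks between 3 and 23 kb after the start, a stretch delimited after the values were seen, all 7 were lower in erAlec0 (median −0.85) and 6 in each of erLor0 (−0.71) and erCriz0 (−0.35). The 3 peaks beyond that stretch had medians of 0.50, 0.58 and 0.51 in the same lines. RNA in erAlec0 and erLor0 differed from naive by 0.20 and 0.17.

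**Figure D2:**
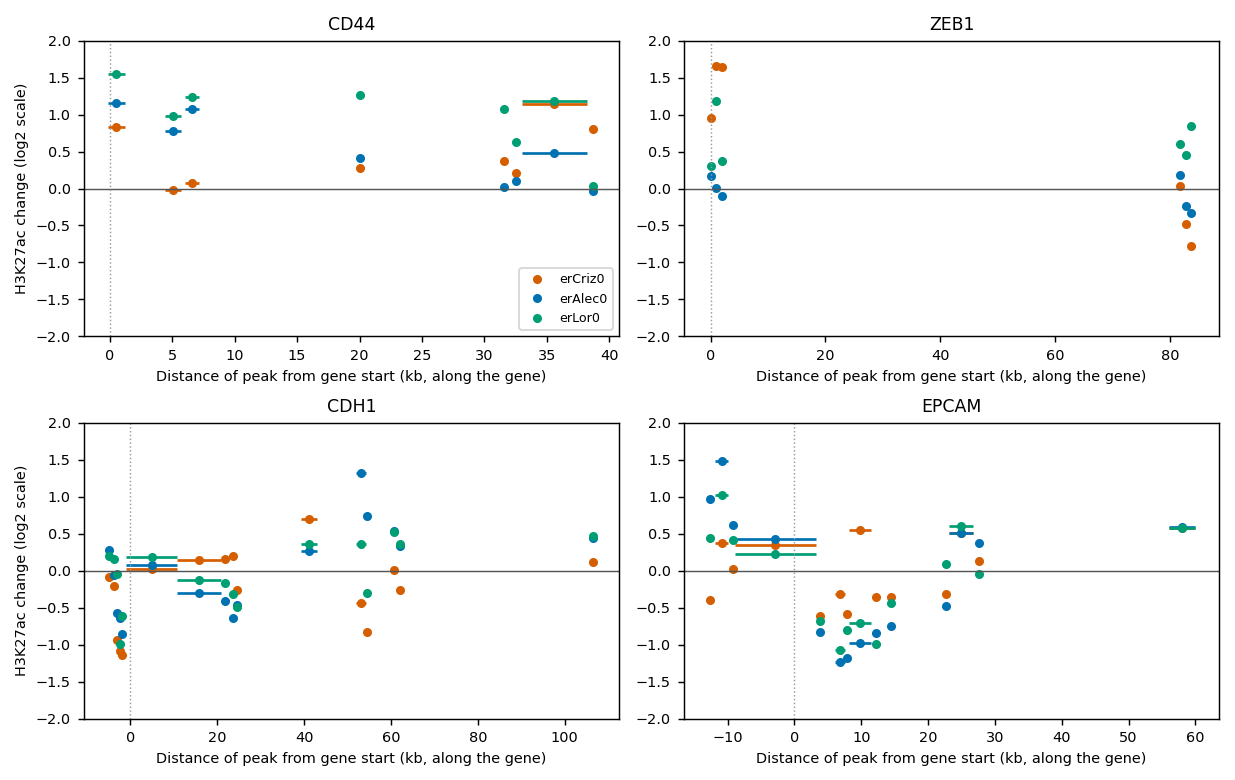
Change of H3K27ac against naive (rlog difference, log2 scale) for each peak of CD44, ZEB1, CDH1 and EPCAM by the distance of its centre from the gene start in kb, with horizontal bars for the length of the peak and a colour for each line. CD44 peaks lie mostly above 0 and are mostly highest in erLor0, the ZEB1 peaks at the start are highest in erCriz0, and EPCAM peaks between 3 and 23 kb lie below 0 in erAlec0.

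Over all 24 mesenchymal peaks the median H3K27ac change was 0.30 (erCriz0), 0.30 (erAlec0) and 0.60 (erLor0), and the median over all peaks of the table was 0 in erCriz0 and erLor0 and 0.00 in erAlec0. With the other peaks within 5 Mb subtracted, the erCriz0 median was 0.030. With 1 gene left out at a time, the erAlec0 median ran from 0.17 to 0.84, highest without ZEB1, and the erLor0 median from 0.34 to 0.62, lowest without CD44. Called up were 4 of 24 (16.7%) in erCriz0, 8 (33.3%) in erAlec0 and 8 (33.3%) in erLor0, where 7%, 14.1% and 7.45% of all peaks were called up. In erCriz0 the number called up was 2 with quantile normalization and also with the trend with level removed. In erLor0, 5 of the 8 belong to CD44, and in erAlec0 3 of the 8 belong to VIM. Called down were 0, 1 and 0 of 24, where 5.94%, 9.41% and 8.82% of all peaks were. On the epithelial side 0, 2 and 1 of 30 peaks were called up and 2, 2 and 1 called down, with median changes of −0.14, 0.01 and 0.03. Of the 9 peaks of the 10 genes that cover a transcript start, 9, 8 and 9 were higher than in naive cells and 3 were called up in each line. Of all 19853 peaks that cover an annotated transcript start, 74%, 63.8% and 73.4% were higher and 6.96%, 10.3% and 9.57% were called up, so a higher level was common at such peaks. Restricting to peaks paired with a single gene removes every peak of SNAI2, ZEB2, VIM and SPARC. The mesenchymal median in erAlec0 was then −0.03. No mesenchymal peak was called up there, since all 8 that were called up in erAlec0 are also paired with another gene.

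**Figure D3:**
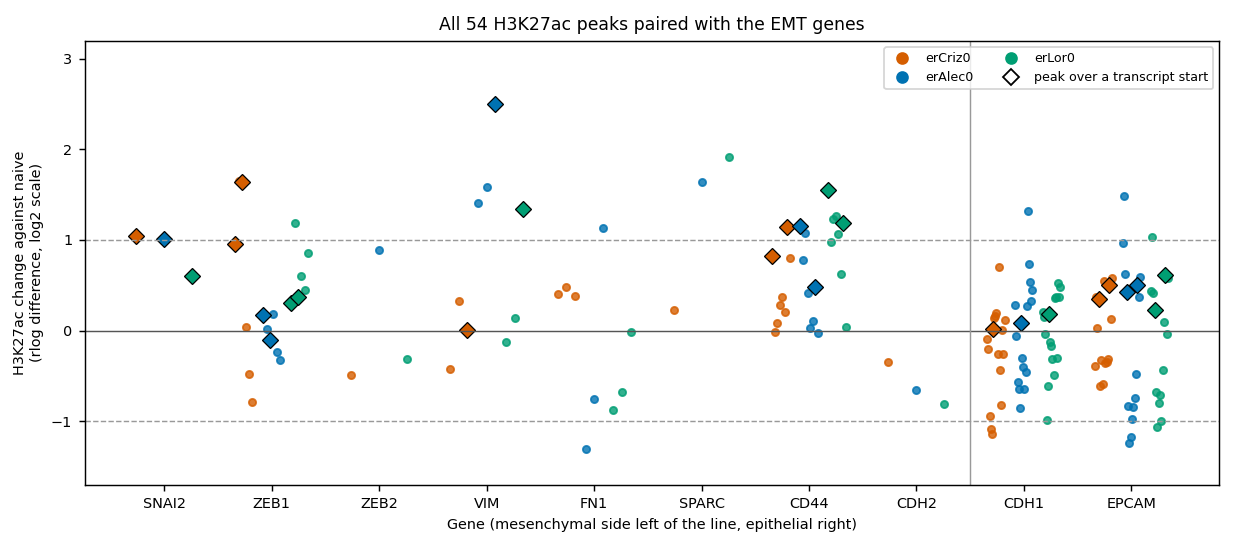
Change of H3K27ac against naive (rlog difference, log2 scale) of all 54 paired peaks by gene, with a colour for each line, diamonds for peaks over a transcript start and dashed lines at the limits of 1 and −1. The largest rise is that of VIM in erAlec0 (2.50), and the peaks of CDH1 and EPCAM spread on both sides of 0 while their peaks over transcript starts lie between 0.02 and 0.61.

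RNA and H3K27ac of the 10 genes were set side by side in each line. The sign of the RNA change matched that of the median peak change for 6 of 10 genes (erCriz0), 8 (erAlec0) and 7 (erLor0), with ZEB1 in erAlec0 counted although its RNA change was −0.00. Other matches also rest on values near 0. These are the peak changes of VIM in erCriz0 (0.01), CDH1 in erAlec0 (0.01) and EPCAM in erLor0 (0.03), and the RNA change of CDH1 in erLor0 (0.01). The share of all genes with matching signs is not given here, so the numbers cannot be judged against it. The sizes did not follow each other. In erCriz0 the 4 genes called up in RNA had median peak changes of 0.01 (VIM), 0.40 (FN1), 0.23 (SPARC) and 0.33 (CD44), and in the other lines larger peak changes at VIM and SPARC came with smaller RNA changes. FN1 had the opposite sign in erAlec0 and erLor0. In SNAI2, RNA was highest in erCriz0, while the peak was at nearly the same level in erCriz0 (6.87) and erAlec0 (6.85). The order of these lines at the SNAI2 peak was reversed with quantile normalization (changes of 0.85 and 0.89). In CD44, by contrast, both RNA and the median peak change were largest in erLor0 (1.13).

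**Figure D4:**
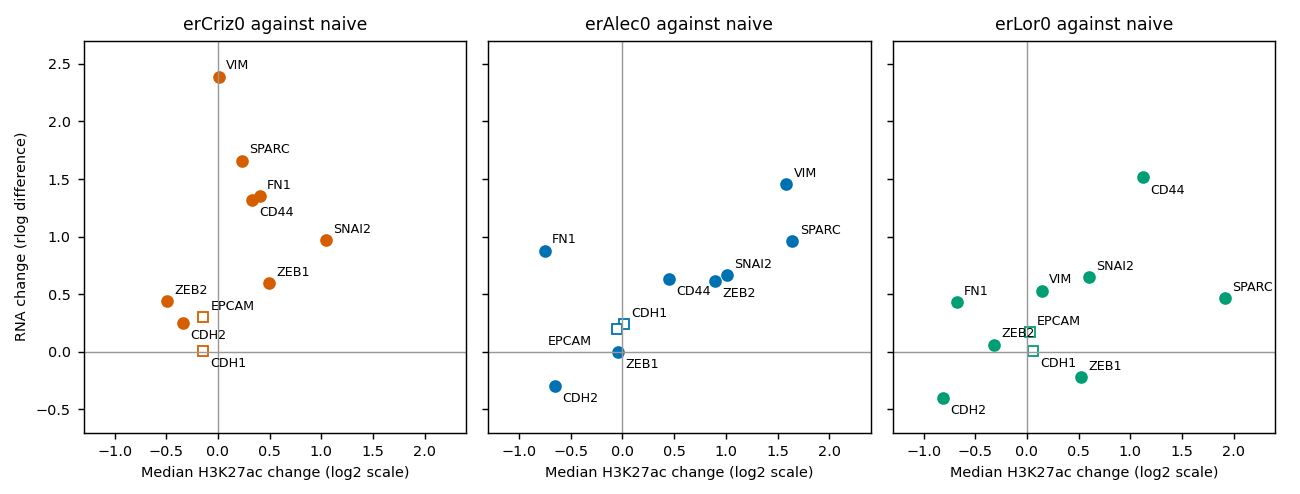
RNA change (rlog difference) against the median H3K27ac change of the paired peaks (log2 scale) in erCriz0, erAlec0 and erLor0, 1 point per gene, filled circles for mesenchymal and open squares for epithelial genes. VIM stands at an RNA change of 2.39 and a peak change of 0.01 in erCriz0 and at 1.46 and 1.58 in erAlec0, and FN1 lies left of 0 in erAlec0 and erLor0.

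The other genes of the transition were taken from a list of 36 mesenchymal and 32 epithelial genes. Of the mesenchymal genes 30 had a row and 22 were expressed (COL1A2, COL3A1, THY1, CDH11, POSTN and MYL9 were not analysed here), and 5, 2 and 1 of the 22 were called up in erCriz0, erAlec0 and erLor0 and 0, 0 and 1 called down, with median changes of 0.34, 0.53 and 0.21. Of expressed genes 2.65%, 2.46% and 1.1% were called up and 1.65%, 2.07% and 0.74% down. Among the 22, SNAI1, GSC, TAGLN, MMP2, FBN1 and AXL were under the minimum in naive cells and passed it only through resistant lines, and 2 of the 5 called up in erCriz0, MMP2 and AXL, are among them. LOX, which crosslinks collagen, and TNC, which encodes tenascin C, rose by 2.36 and 2.10 in erCriz0 and changed by at most 0.70 elsewhere. MMP2, a matrix metalloproteinase, rose by 1.49 in erCriz0. WWTR1, the transcriptional coactivator TAZ, and AXL, a receptor tyrosine kinase, rose in erCriz0 by 1.40 and 1.06 and were between 0.87 and 0.99 higher in the other lines. S100A4, a calcium-binding protein, was at 5.90 (naive), 5.45 (erCriz0), 7.11 (erAlec0) and 7.38 (erLor0), so erCriz0 was below naive and the others were called up. ITGA5, the alpha subunit of the fibronectin receptor, rose by 1.02 in erAlec0. CALD1, the actin-binding caldesmon, fell by 1.67 in erLor0.

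All 32 epithelial genes of the list were expressed, with 1, 2 and 2 called up, 1, 0 and 0 called down, against the same shares of expressed genes, and with median changes of −0.05, 0.22 and 0.15. CDH3 rose in all 3 lines, by 1.72, 1.12 and 1.28. DSP, the desmosome protein desmoplakin, was at 10.76 (naive), 10.84 (erCriz0), 11.78 (erAlec0) and 12.02 (erLor0) and was called up in erAlec0 and erLor0. CLDN3, a tight junction claudin, fell by 1.28 in erCriz0 and changed by −0.18 and −0.01 elsewhere. The splicing factor ESRP1 and the transcription factor GRHL2, which maintain the epithelial state, changed by at most 0.16 in any line. Other regulators of the list did not all stay as close to naive, although none was called. OVOL2 changed by −0.87, 0.17 and 0.07 in erCriz0, erAlec0 and erLor0, and OVOL1 by −0.22, −0.12 and −0.20. ESRP2 changed by −0.06, 0.58 and 0.29, and ELF3 by 0.43, 0.69 and 0.15.

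For the 4 genes called up in RNA, the expressed genes with the nearest pattern were found by Euclidean distance over the 3 RNA changes. VIM was closest to SOCS3 (distance 0.29), NAMPTP1 (0.36), a pseudogene whose reads may be shared with its parent gene, and OSMR (0.37), the oncostatin M receptor. SOCS3, a feedback inhibitor of cytokine signalling, changed by 2.32, 1.24 and 0.35. FN1 was closest to RASSF6 (0.10), FST (0.12) and SIAE (0.15), and SPARC to CTSS (0.14), RGS6 (0.20) and FHL2 (0.20). The genes nearest to CD44 were LINC00632 (0.32), NOTCH2 (0.37) and CAVIN1 (0.57).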

How the data were processed

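RNA and H3K27ac of naive, erCriz0, erAlec0 and erLor0 cells were taken from 1 table, whose rows join a peak to a gene no more than 20 kb away. Its values are log2 (rlog) levels that the authors deposited after counting reads with HTSeq-count for genes (HISAT2, hg38) and featureCounts for merged MACS2 peaks (BWA and bcl2fastq are named in the submitters' processing notes) and transforming them with DESeq2 over the 4 libraries. Subtraction of input is not stated, and tool versions are not given in the sources used here. The authors' columns of a correlation with its p-value and adjusted p-value, a score for each pair, were deposited too and not used. Counts, and so depth, cannot be recovered.

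Gene IDs were matched without version to GENCODE 44, whose coordinates on hg38 are given, and peak starts were converted to count from 1. Changes (resistant minus naive), medians and counts were computed with Python 3.11.15, numpy 2.4.6 and pandas 2.3.3, and the scripts were tested on simulated data. Named were all 10 genes, genes of the wider list past the limit in a line (at most 20 by size), each gene's start, strongest, most risen and most fallen peaks, and the 3 nearest genes of each gene called. CDH1 and EPCAM peaks called beside these, the list genes under the minimum in naive cells and a pair of CD44 intronic peaks were named after their values were seen. The same holds for ESRP1, ESRP2, GRHL2, OVOL1, OVOL2 and ELF3. The 10 genes and the lists were chosen with earlier results of these data known. Alternatives were another scaling, limit, filter, pairing or regional background. No test was run because each line has 1 library. The summed marker levels are sums of 2 to the power of the rlog. Some items are not reported here.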

Additional observations from a re-analysis of the deposited data

Results flagged for a closer look

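A pair of single peaks moved by at least 1.5-fold in opposite directions in different resistant lines, a difference that was not tested. The intronic ZEB1 peak chr10:31401554-31402823 changed by −0.78 (erCriz0), −0.33 (erAlec0) and 0.85 (erLor0). The intronic CDH1 peak chr16:68791567-68791899 changed by −0.83 (erCriz0), 0.74 (erAlec0) and −0.31 (erLor0), from a low naive level of 2.66.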

How the results depend on the processing

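No paired analysis was possible because each line has 1 library. Depth is unknown, and the values of weak peaks rest most on the shrinkage. The median RNA changes of both groups moved by less than 0.25 under every alternative. With a limit of 1.5-fold, mesenchymal genes called up in RNA numbered 6 in erCriz0, 6 in erAlec0 and 2 in erLor0. Mesenchymal peaks up numbered 7, 10 and 13 and down 1, 3 and 3 in the same lines. Epithelial peaks up numbered 1, 6 and 2 and down 6, 9 and 7. The wider mesenchymal list then had 8, 10 and 6 genes up and 2 down in each of erCriz0 and erAlec0, and the epithelial list 5 up in erAlec0 and 2 down in erCriz0. With a limit of 2, 1 mesenchymal gene was up in RNA in erCriz0 and 0 in the other lines, and of the wider lists 2 mesenchymal genes were up in erCriz0 and 0 of any other kind were called. Shares of all expressed genes and all peaks called at these limits are not given here. The numbers at them therefore cannot be judged against such shares, and the same holds for numbers under the alternatives that follow. Centring RNA gave 5 of the 8 mesenchymal genes up in erCriz0. It gave 2 wider mesenchymal genes up in erLor0, and quantile normalization 2 there and 1 epithelial gene up in erAlec0. For peaks, centring gave 0 epithelial peaks down in erLor0. Quantile normalization gave 2 mesenchymal up in erCriz0, 0 epithelial up in erLor0, and 1, 4 and 2 epithelial down. Removing the trend with level gave 2 mesenchymal up in erCriz0, 0 epithelial up in erLor0, and 1 and 3 epithelial down in erCriz0 and erLor0. Keeping peaks over the read minimum gave a mesenchymal median of 0.85 in erLor0 and 1 epithelial peak down in erCriz0. Keeping peaks of a single gene left 14 of the 54 peaks, and none of SNAI2, ZEB2, VIM, SPARC or EPCAM. It gave 1, 0 and 3 mesenchymal peaks up and a mesenchymal median of −0.031 in erAlec0. The epithelial values then rest on a few CDH1 peaks alone. Their medians were −0.43, 0.74 and 0.37, with 1 up in erAlec0, 0 up in erLor0 and 0 down in every line. Keeping peaks within 5 kb gave 5 mesenchymal up in erAlec0, an epithelial median of −0.41 there, and epithelial up 1 in erAlec0 and 0 in erLor0. Subtracting the other peaks within 5 Mb gave a mesenchymal median of 0.030 in erCriz0, epithelial down 4 in erCriz0 and 3 in erLor0 and 0 up in erLor0, and within 2 Mb epithelial down 4 and 2 in the same lines and mesenchymal down 2 in erAlec0 and 1 in erLor0. The median of the genes' medians was 0.67 in erAlec0 and 0.33 in erLor0 on the mesenchymal side. Leaving out 1 gene at a time gave mesenchymal peak medians from 0.17 to 0.84 in erAlec0, highest without ZEB1, and from 0.34 to 0.62 in erLor0, lowest without CD44. Of 378 recomputed summary values 304 stayed within 0.25 (medians) or 1.5 times (numbers called) and 74 moved, and of 276 values of single genes 33 moved.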

Other observations

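Genes that share peaks with the 10 genes were looked up after the pairs were seen. RNA levels of ZEB1-AS1 were 5.63 (naive), 5.81 (erCriz0), 5.97 (erAlec0) and 5.26 (erLor0), and changed by 0.19, 0.34 and −0.36, so it was not highest in erCriz0, where the ZEB1 start peaks were. Whether counting used the strand is not given in the sources used here, so reads where the genes overlap cannot be told apart. EPCAM-DT, which runs away from the EPCAM start, was low, between 2.28 and 2.47, while VIM-AS1 and FN1-DT were listed at 0 in every library and CD44-DT lay near −1.7.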
